A study of Arabidopsis thaliana with 22 samples.

Results

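The genes described here are 7 basic helix-loop-helix (bHLH) transcription factors of the Arabidopsis thaliana iron deficiency network: bHLH104, bHLH115, ILR3, bHLH34, bHLH121, PYE and BHLH101. They were chosen by name: a probe set counts where the platform annotation lists exactly 1 gene for it and that gene is among these 7. Each gene had 1 such probe set, so the set holds 7 of the 22746 probe sets on the array other than its controls. The rule uses no measured level, but the 7 genes were listed with earlier results of these data known. RNA was from roots of plants that the labels give as 10 days old, of the Col-0 strain, the common laboratory accession, and the labels name no mutation or transgene. Plants had been moved to MGRL agar with either 1500 uM sulfate (replete) or 0 uM sulfate (sulfate-free) and sampled 2, 4, 8, 12 and 24 h afterwards. A further group, labelled 0 h with the 1500 uM code in its title, had no treatment. This gives 11 groups of 2 arrays, lettered A and B. For the agar's iron, no amount is given in the sources used here. The labels do not say whether arrays A and B were grown apart, and p-values therefore cover no more than the spread between these arrays, which can be technical.

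Plants sense a shortage of iron through a cascade of bHLH proteins. The subgroup IVc factors bHLH104, bHLH115, ILR3 and bHLH34 pair with one another and with the subgroup IVb factor bHLH121 and switch on the genes of the next tier. These include PYE, a IVb repressor of genes for iron movement within the plant, and the subgroup Ib genes, of which BHLH101 is a member. Ib proteins pair with FIT, and the pairs activate the root genes for acidification, reduction and uptake of iron. The E3 ligase BTS and its relatives BTSL1 and BTSL2 hold the cascade back, in part by marking IVc factors for degradation, whereas the small IMA peptides promote it. Sulfur and iron supply meet in roots because iron-sulfur clusters need both elements, which makes these genes of interest in a sulfate experiment.

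Values are MAS5 signals on a linear scale as the authors deposited them, and differences are on the log2(signal + 11) scale with limma standard errors (SE) and Benjamini-Hochberg adjusted p-values over all probe sets tested, with 0.05 as the threshold. The median signal of an array lay between 42.5 and 46.2, and arrays of a group correlated with r between 0.977 and 0.987 over probe sets. A probe set's level depends on its own probes, so no gene's signal is set against another's. A filter on dim probe sets, at the 40th percentile of mean signal (about 27), left 13648 to test, and 6 of the 7 genes passed it. BHLH101, at the 25th percentile, did not, and its differences come from a fit without the filter over all 22746. Precision is limited by having 2 arrays a group. Of the 10 root markers listed, PYK10, EXPA7 and EXPA18 were on named probe sets. PYK10, a root beta-glucosidase, gave 2041 to 4072 on every array, and the root hair expansins EXPA7 and EXPA18 gave 90.7 to 217. The other root markers, among them SCR, SHR and CASP1, and the pericycle markers PHO1 and SKOR were on no probe set named to 1 gene and were not analysed here.

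Each letter occurs in every group, and arrays of the same letter deviated together. The difference between A and B correlated between groups over probe sets with a median r of 0.316, and 54 of 55 pairs of groups were over 0.1. Results are therefore given from the fit without a block and, where the call or the count changes, from a fit with a term for the letter (the letter factor) and from one that blocks arrays sharing both time and letter (the time and letter block).

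**Figure D1:**
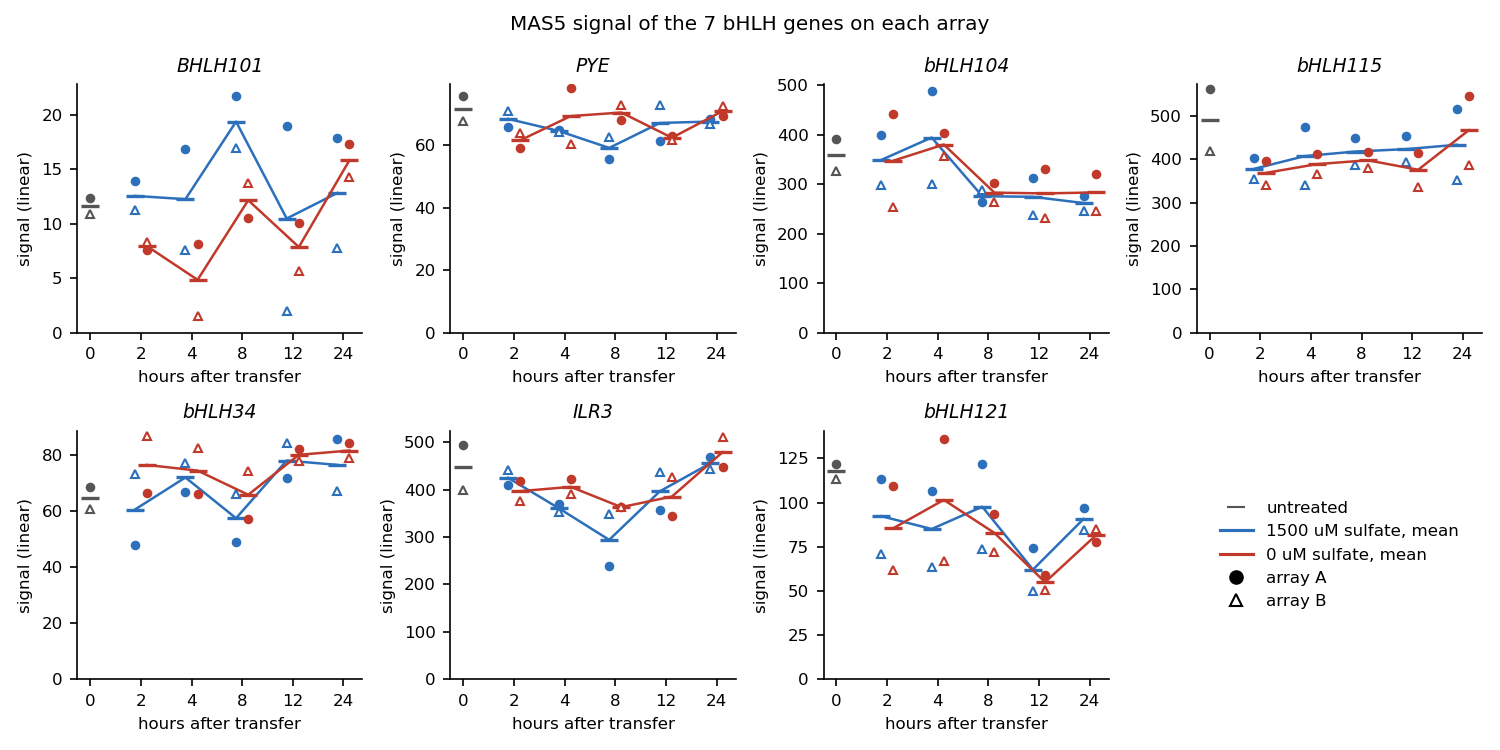
MAS5 signal (linear axis from 0) of each gene against hours after transfer, one panel per gene. Filled circles are arrays A and open triangles arrays B, grey for untreated, blue for 1500 uM and red for 0 uM sulfate, and lines join the means of the 2 arrays. bHLH121 dips to between 49.7 and 74.3 on the 4 arrays of 12 h, and bHLH104 has its lower group means from 8 h on. Blue and red means lie apart for the dim BHLH101 and, among others, for ILR3 at 8 h (294 and 363) and bHLH34 at 2 h (60.4 and 76.4). No gene was called between media.

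bHLH104 (AT4G14410), a IVc activator, had its 5 highest group means in untreated roots and at 2 and 4 h, and its 6 lowest at 8, 12 and 24 h. Untreated arrays A and B read 391 and 327. In replete medium the A arrays gave 398.5, 489, 263.5, 312 and 277 at 2, 4, 8, 12 and 24 h, and the B arrays 299, 300.1, 288, 237 and 247. Without sulfate the A arrays gave 441, 404, 302, 330.2 and 320.3, and the B arrays 254, 357, 264, 232.5 and 246. All 4 arrays of 8 h and all 4 of 24 h were below both untreated arrays, while the sulfate-free array A of 12 h, at 330.2, was above untreated B. Group means lay between 262 and 283 from 8 h on and between 347 and 394 before. No gap between neighbours in their order exceeded both SDs, and A and B arrays of a group differed by up to 1.74-fold.

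bHLH115 (AT1G51070), another IVc activator, was highest in untreated roots, at 562 on array A and 419 on array B. In replete medium A arrays read 403, 474.5, 449.8, 454 and 515 in order of time, and B arrays 354, 341, 386.5, 394 and 352. Without sulfate they read 397, 413, 416, 415 and 547 for A, and 341, 365, 379.8, 337 and 388 for B. Array A exceeded array B in every one of the 11 groups, by up to 1.46 times. At 2 h all 4 arrays lay below both untreated arrays, and at each later time at least 1 array overlapped them. Group means spanned 369 to 490.3, and again no neighbouring gap exceeded both SDs.

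ILR3 (AT5G54680), also known as bHLH105, the IVc factor that also takes part in repression as a partner of PYE, was lowest at 8 h in replete medium and highest at 24 h. Untreated arrays gave 494 and 399.7. In replete medium A arrays gave 409.7, 369, 239, 356 and 468, and B arrays 441, 353, 349, 437 and 443. Without sulfate A arrays gave 418, 422, 364, 343.5 and 448, and B arrays 375, 390.3, 362.5, 427.5 and 510.3. All 4 arrays of 8 h, from 239 to 364, were below both untreated arrays. The replete array A of 8 h stood at 239, and the next lowest array, the sulfate-free array A of 12 h, at 343.5. The group means ran from 294 ± 77.3 (SD, n = 2) in replete medium at 8 h to 479 ± 44 (SD, n = 2) without sulfate at 24 h. Neighbours in that order again differed by less than an SD of one or the other.

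bHLH34 (AT3G23210), the remaining IVc activator, ranged from 47.7 to 86.5 with a median of 72.5. Its lowest arrays were the replete A arrays of 2 and 8 h, at 47.7 and 48.8, and its highest the sulfate-free array B of 2 h. All 4 arrays of 12 h, at 71.9 to 84.1, were above both untreated arrays (60.5 and 68.3), but at 24 h the replete array B, at 67.1, was not. Its group means went from 57.4 ± 12.1 (replete, 8 h) to 81.5 ± 3.93 (sulfate-free, 24 h; SD, n = 2), with no neighbouring gap beyond both SDs.

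bHLH121 (AT3G19860), also called URI, is the IVb partner that the IVc factors need for full activation of their targets. Its group mean was lowest at 12 h in both media. Untreated arrays gave 122 on A and 114 on B. In replete medium A arrays gave 114, 106.5, 122, 74.3 and 97.2, and B arrays 71.0, 63.5, 73.6, 49.7 and 84.2. Without sulfate A arrays gave 109, 136, 93.4, 59.1 and 77.5, and B arrays 61.6, 66.8, 72.2, 50.7 and 85.2. The 4 arrays of 12 h, at 49.7 to 74.3, were below all arrays of 24 h and of untreated roots, and overlapped the B arrays of 2, 4 and 8 h. In the order of its 11 group means, the gap between 81.4 ± 5.43 (sulfate-free, 24 h) and 62.0 ± 17.4 (replete, 12 h) was the single one larger than both SDs.

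PYE (POPEYE, AT3G47640), the repressor and a known target of the IVc factors, had the smallest ratio of the 7 between its highest and lowest group means. Its 22 signals lay between 55.6 and 78.3 with a median of 66.4. The highest group mean, 71.7 ± 5.60 (SD, n = 2) in untreated roots, was 1.21 times the lowest, 59.2 ± 4.999 in replete medium at 8 h. The single neighbouring gap beyond both SDs was that between 64.6 ± 0.378 (replete, 4 h) and 62.4 ± 0.959 (sulfate-free, 12 h).

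BHLH101 (AT5G04150), the Ib gene and itself a target of the cascade, was dim on all 22 arrays, from 1.52 to 21.8 with a median of 11.1. Its highest group was replete medium at 8 h, with 21.8 on array A and 17.0 on B, and its mean of 19.4 ± 3.39 (SD, n = 2) stood above the next, 15.9 ± 2.13 without sulfate at 24 h, by more than both SDs. Its lowest was sulfate-free medium at 4 h, with 8.18 and 1.52. In replete medium at 12 h array A gave 19.0 and array B 2.01, a 9.44-fold difference within 1 group. A signal this low is not shown to be above background, and its ratios depend on the number added before taking log2.

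Whether roots without sulfate altered the transcripts of these regulators was asked first. No gene of the 7 passed the test between media at any of the 5 times, over the mean of the times, or for a difference that changes with time. This held for the limma fit without a block and for both others. Few probe sets of any kind were called without a block: 0.0% at 2 and 4 h, 0.00733%, 0.125% and 0.359% at the later times, 0.476% for the mean over times and 0.0806% for the change with time. Without the filter, as for BHLH101, these were 0.0%, 0.0%, 0.0308%, 0.0923%, 0.207%, 0.281% and 0.0528%. The letter factor called 0.0%, 0.00733%, 0.022%, 0.322%, 0.542%, 1.05% and 0.154% in the same order, and the time and letter block 0.00733%, 0.0293%, 0.147%, 0.535%, 0.652%, 1.66% and 0.161%. Of the 35 single-time differences of the 7 genes, 0 had an unadjusted p under 0.05 without a block.

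For the 6 genes past the filter, the 30 differences at single times lay between -0.19 and 0.32. Their 95% confidence intervals reached from -0.86 to 0.87, both ends being those of bHLH121, while those of PYE reached from -0.4 to 0.49. True differences inside a gene's interval at a single time remain possible. The smallest unadjusted p, 0.0697, was that of ILR3 at 8 h, at 0.32 (SE 0.16, adjusted p = 0.999). Its sulfate-free arrays, 364 and 362.5, were both above the replete arrays, 239 and 349. Averaged over the 5 times, 10 arrays a medium, the differences were narrower, from -0.07 for bHLH121 to 0.13 for bHLH34, with intervals from -0.37 to 0.31. For PYE the interval of the mean difference was -0.09 to 0.15.

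BHLH101 gave negative differences at 4 of the 5 times: -0.31, -0.56, -0.39 and -0.08 at 2, 4, 8 and 12 h, against 0.20 at 24 h. Their mean was -0.23 (SE 0.14, interval -0.53 to 0.08, adjusted p = 0.971). At 2 h both sulfate-free arrays, 7.55 and 8.35, lay below both replete arrays, 13.9 and 11.2, and at 8 h they were again lower, at 10.6 and 13.8 against 21.8 and 17.0. In the fit with the letter factor its 4 h interval was -1.09 to -0.02, with 0.972 as the adjusted p.

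Counted over the 7 genes, arrays of the media did not overlap for 2 at 2 h (BHLH101 and PYE, both lower without sulfate), 1 at 4 h (ILR3, higher), 3 at 8 h (PYE and ILR3 higher, BHLH101 lower), 0 at 12 h and 1 at 24 h (PYE, higher). Over all probe sets the shares were 27.8%, 26.6%, 32.0%, 34.8% and 28.3%. PYE was thus below its replete arrays at 2 h and above them at 8 and 24 h, by -0.13, 0.22 and 0.06 on the log2 scale, with an F-test for a change with time at adjusted p = 1.

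**Figure D2:**
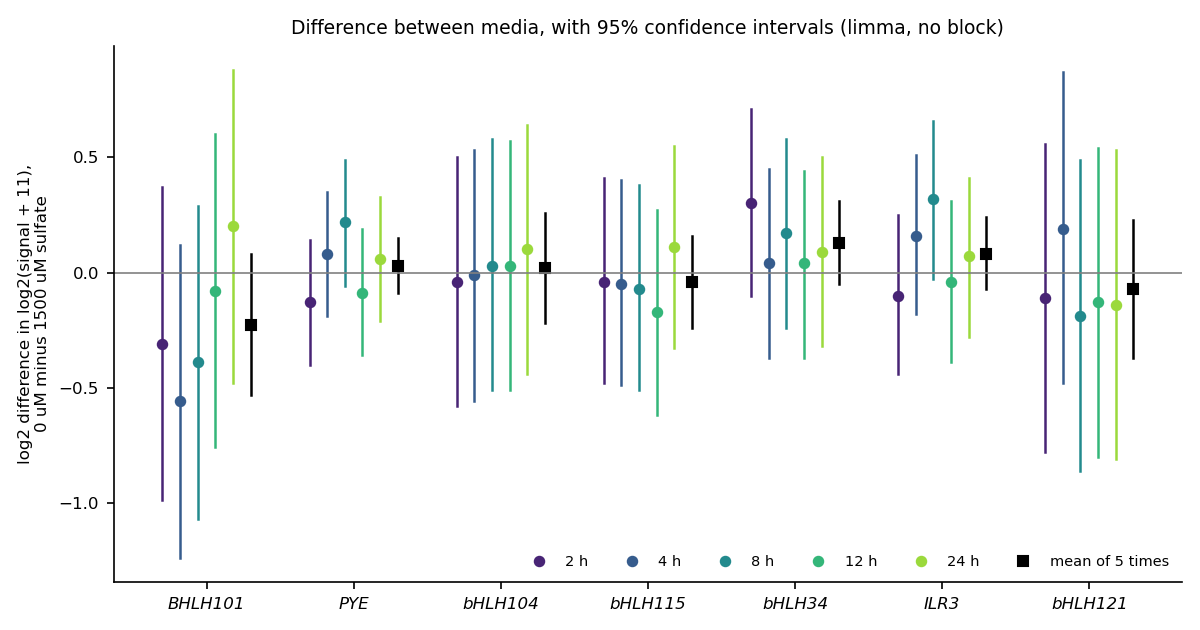
Log2 difference between sulfate-free and replete medium (vertical axis, log2(signal + 11), no block) for each gene at 5 times (coloured circles) and for the mean over times (black squares). Bars are 95% confidence intervals. All single-time intervals span 0, and those of the mean are narrower, from -0.37 to 0.31 for the 6 genes past the filter.

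Roots after transfer, as the mean of both media, were next set against untreated roots. Time since transfer, handling and time of day cannot be told apart in this comparison, and all 5 times share the 2 untreated arrays. bHLH121 fell at 12 h, from 118 ± 5.88 (SD, n = 2) to 58.5 ± 11.4 (SD, 4 arrays), a log2 difference of -0.90 (SE 0.28, interval -1.49 to -0.32, limma adjusted p = 0.0406) or 1.87-fold. In tissue of many cell types, fewer cells that express a gene and less RNA per cell cannot be told apart. It was the single call without a block among 35 differences (7 genes at 5 times). At 12 h 12.6% of all probe sets were called, 6.87% as lower, so 1 of 7 is near that background. The shares were 5.77%, 4.17%, 7.2% and 0.476% for the 4 other times, with 0 of the 7 genes. Without the filter they were 3.16%, 2.13%, 3.92%, 6.18% and 0.259% from 2 to 24 h.

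The difference of bHLH121 was -0.78 within the A arrays and -1.03 within the B arrays. Taken by medium, with the untreated arrays shared, it was -0.84 (SE 0.32, adjusted p = 0.13) in replete and -0.97 (SE 0.32, adjusted p = 0.0687) in sulfate-free medium, where 6.39% and 8.44% of probe sets were called. The letter factor gave adjusted p = 0.000872 for both media together, and 0.00733 and 0.00201 for each, against 16.1% and 20.0% of probe sets. With the time and letter block these were 0.0321, 0.0803 and 0.0361. At 2, 4, 8 and 24 h its differences were -0.41, -0.36, -0.37 and -0.41, none of them called. Without the filter the 12 h difference was not called, and without a block the call was also lost when untreated A or B, replete 12 h B, replete 24 h A or B, or sulfate-free 12 h A or B was left out, with adjusted p of up to 0.278. In the fit with the letter factor it was called whichever of the 22 arrays was left out, while the replete call of that fit was lost without untreated B or either replete 12 h array.

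Of 6 green tissue markers listed, RCA (Rubisco activase) and LHCB4.1 (a light-harvesting protein) were on named probe sets, and both were lowest at 12 h as well. RCA gave 209 and 284.5 in untreated roots and 65.3 to 88.3 at 12 h (log2 -1.47, adjusted p = 0.000312). LHCB4.1 gave 162 and 152 against 57.1 to 79.4 (log2 -1.17, adjusted p = 0.00286). Both rose again by 24 h, by 1.26 and 0.66 (adjusted p = 0.000235 and 0.0411). Before 12 h the course differed: RCA gave 73.2 to 113 at 8 h and LHCB4.1 90.7 to 141. The mean of bHLH121 at 8 h, 90.2, was near those of 2 and 4 h, 88.9 and 93.3. For the root markers the 12 h differences were -0.13 (PYK10), -0.53 (EXPA7) and 0.08 (EXPA18), with no call without a block (EXPA7 had adjusted p = 0.0279 with the letter factor). The part of these transcripts in the result for bHLH121 was not tested.

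Under the letter factor, 4 of the 35 differences were called, all lower: those of bHLH121 at 12 h, ILR3 at 8 h and bHLH115 at 2 and 12 h. That fit also called more of all probe sets, with 10.6%, 8.09%, 14.9%, 23.9% and 2.51% from 2 to 24 h. For ILR3 at 8 h the log2 difference was -0.44 (SE 0.14), at adjusted p = 0.0714 without a block, 0.0317 with the letter factor and 0.109 with the time and letter block. It was -0.72 within the A arrays and -0.16 within the B arrays. The letter factor call was lost without the filter and without untreated A, replete 8 h A or either sulfate-free 8 h array.

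In replete medium alone ILR3 fell at 8 h, by 0.60 on the log2 scale (SE 0.16), or 1.52-fold, with adjusted p = 0.0444 where 4.84% of probe sets were called. The letter factor gave 0.0163, where 11.6% were called. Within letters the differences were -1.01 in A and -0.19 in B. In sulfate-free medium it differed by -0.28 (adjusted p = 0.416, 4.43% called), and the difference between the media at 8 h was not called (adjusted p = 0.999). Without the replete 8 h array A the replete difference was -0.34 and not called in either fit, nor was it called without untreated A (-0.45 without a block). The call without a block was also lost by narrow margins without the filter, with quantile normalization, without the intensity trend, without untreated B, and without either array of replete 2 or 24 h or of sulfate-free 2, 8 or 24 h. A fit on the groups compared alone gave adjusted p = 0.17.

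bHLH115 at 2 h was lower by a log2 difference of -0.37 (SE 0.18; -0.48 in A, -0.26 in B). The letter factor gave adjusted p = 0.0211, against 0.303 without a block and 0.32 with the time and letter block, and the call was lost without untreated A or B, replete 2 h A or sulfate-free 2 h A. At 12 h it differed by -0.28, with adjusted p = 0.049 under the letter factor, 0.333 without a block and 0.335 with the time and letter block. The 12 h call was lost under quantile normalization, without the intensity trend, without the filter, and without any of the arrays of untreated roots, of 2 or 12 h, or of sulfate-free medium at 4 h.

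Taken by medium, bHLH115 was called with the letter factor in sulfate-free medium alone, at 2 h (-0.39, adjusted p = 0.0423, against 0.409 without a block and 0.342 with the time and letter block) and at 12 h (-0.37, adjusted p = 0.0321, against 0.296 and 0.241). In that fit 8.43% and 20.0% of all probe sets were called. In replete medium its differences at these times were -0.35 and -0.19 (adjusted p = 0.0786 and 0.27 with the letter factor), and between media it was called at neither time. The 2 h call was lost without the filter, without the intensity trend, and without any array of untreated roots, of 2 h or of 12 h. The 12 h call was lost without either untreated array or either sulfate-free 12 h array.

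bHLH104 had differences of -0.35, -0.37 and -0.39 at 8, 12 and 24 h, with adjusted p of 0.1, 0.0594 and 0.137 with the letter factor. Those of bHLH34 lay between -0.07 and 0.25 and those of PYE between -0.13 and -0.04, with no call in any of these 3 fits. BHLH101 differed by -0.27 to 0.23, with intervals from -0.85 to 0.82.

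Arrays of transferred and untreated roots did not overlap for bHLH115 at 2 h, for no gene at 4 h, for bHLH104 and ILR3 at 8 h, for bHLH34 and bHLH121 at 12 h and for bHLH104 and bHLH121 at 24 h. Transferred arrays were the lower ones in each case except bHLH34. Over all probe sets 24.3%, 19.1%, 27.3%, 32.4% and 19.7% did not overlap from 2 to 24 h.

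**Figure D3:**
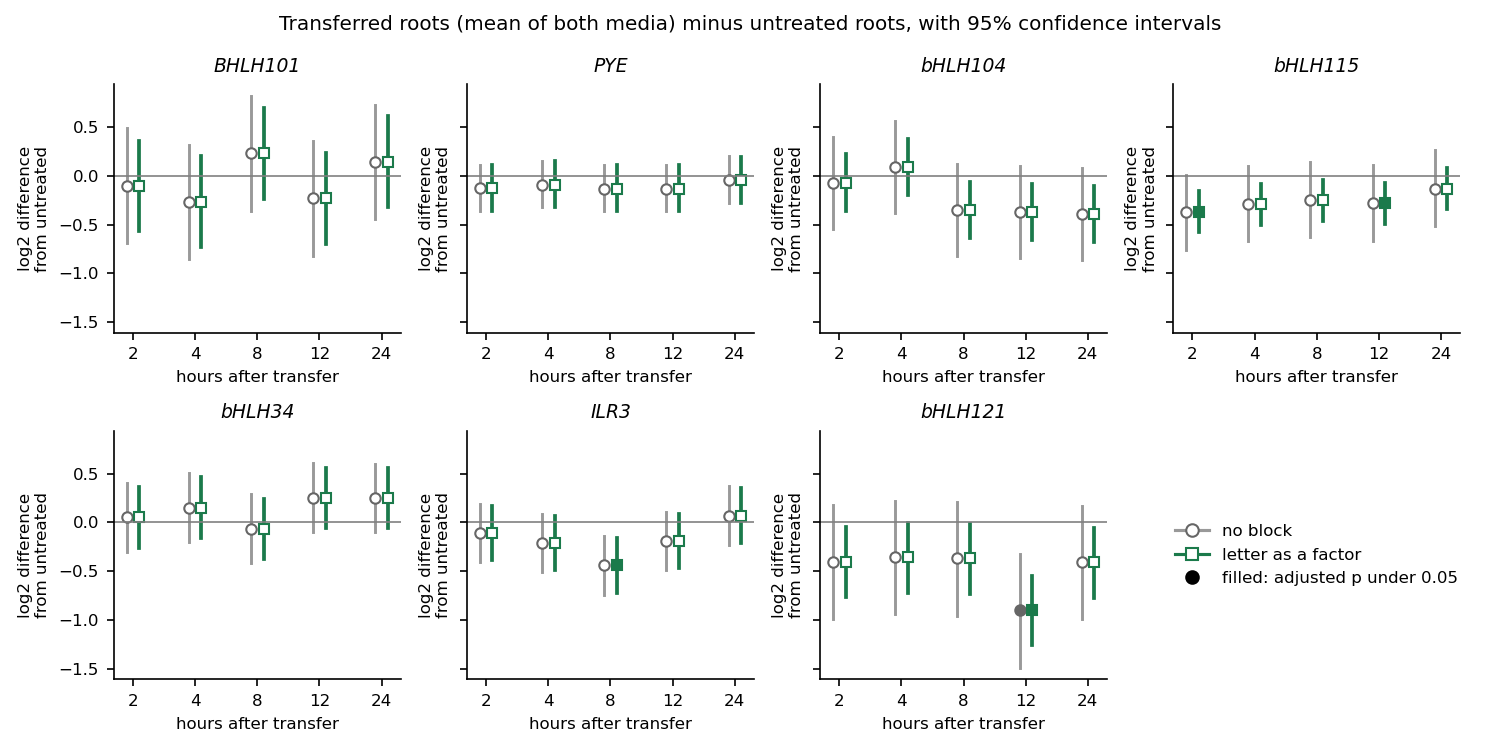
Log2 difference between transferred roots (mean of both media) and untreated roots (vertical axis) against hours after transfer, one panel per gene. Grey circles are the fit without a block, green squares the fit with the letter as a factor, bars 95% confidence intervals, and filled symbols an adjusted p under 0.05. bHLH121 at 12 h is filled in both fits, and ILR3 at 8 h and bHLH115 at 2 and 12 h only in green.

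Over all times together, untreated roots included, the moderated F-test called ILR3 alone without a block (adjusted p = 0.044), where 21.7% of all probe sets passed (12.1% without the filter). The letter factor called 4 of 7: ILR3 (0.0162), bHLH104 (0.0063), bHLH115 (0.0443) and bHLH121 (0.00525), against 38.5% of probe sets. The time and letter block called 0, against 13.8%, with 0.14 for ILR3. The call of ILR3 without a block was lost without the filter, without the intensity trend, and without any single array other than untreated B, replete 4, 8 or 12 h B, or sulfate-free 12 h A or B. With the letter factor it was lost without replete 8 h A or sulfate-free 8 h B. That of bHLH115 was lost without the filter, without the trend, and without either array of untreated roots, of 2 h or of 12 h, or array A of sulfate-free 4 h or of either medium at 24 h. Those of bHLH104 and bHLH121 held whichever of the 22 arrays was left out. PYE and bHLH34 had adjusted p of 0.831 and 0.31 without a block and 0.807 and 0.157 with the letter factor.

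Between neighbouring times no gene passed without a block in any of 28 differences. Of these, 7 had an unadjusted p under 0.05, and the share of all probe sets at that unadjusted threshold is not given here. Backgrounds, at an adjusted p under 0.05, were 1.88%, 2.12%, 0.63% and 6.67% of probe sets for the steps ending at 4, 8, 12 and 24 h. Without the filter they were 0.98%, 1.19%, 0.259% and 3.39%. With the letter factor 3 steps were called, where 4.46%, 6.26%, 2.7% and 14.0% of probe sets passed. bHLH104 went from 387 ± 79.8 at 4 h to 279 ± 19.1 at 8 h (SD, 4 arrays each), a log2 difference of -0.44 (SE 0.18), with adjusted p = 0.269 without a block, 0.0257 with the letter factor and 0.491 with the time and letter block. The arrays of 8 h, at 263.5 to 302, and those of 4 h, at 300.1 to 489, overlapped by 1 array each. This call was lost without the filter and without replete 4 h A, replete 8 h A, sulfate-free 4 h B or sulfate-free 8 h A.

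bHLH121 differed by -0.53 from 8 to 12 h and by 0.49 from 12 to 24 h (SE 0.22 each). The letter factor gave adjusted p = 0.0465 and 0.0232, against 0.41 and 0.22 without a block and 0.725 and 0.337 with the time and letter block. From 12 to 24 h its signal went from 58.5 ± 11.4 to 86.0 ± 8.19. The arrays of these times did not overlap, but the share of all probe sets without overlap between them was not determined. The step into 12 h was lost with a pseudocount of 50, without the trend, without the filter, and without any array of 12 h, of 2 h, of replete 24 h or of 8 h other than replete B. The step out of 12 h was lost without the filter and without replete 12 h A or B, replete 24 h B, sulfate-free 12 h A or sulfate-free 24 h B.

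BHLH101 had steps of 0.49 and -0.46 into and out of 8 h (SE 0.23), without a call in any of these fits. ILR3 differed by -0.23, 0.26 and 0.26 over the last 3 steps (SE 0.12), and bHLH34 by 0.32 from 8 to 12 h (SE 0.14), none of them called. PYE differed by at most 0.09 in any step.

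The arrays of letters A and B differed for some of the genes. bHLH121 was higher on array A in 10 of 11 groups, with a log2 difference of 0.43 (SE 0.08, adjusted p = 0.00128). bHLH104 was higher on A in 10 of 11 groups (0.34, adjusted p = 0.00152), and bHLH115 in 11 of 11 (0.30, SE 0.05, adjusted p = 0.000367). BHLH101 was higher on A in 9 of 11 groups (0.34, adjusted p = 0.0407 without the filter, where 16.6% of probe sets were called). With the filter 29.4% of all probe sets differed between letters. ILR3, PYE and bHLH34 were higher on A in 6, 5 and 4 groups, at -0.06, -0.01 and -0.14, and were not called (adjusted p = 0.492, 0.877 and 0.143). Of the variance of bHLH115 over the 22 arrays, 54.9% lay between letters and 33.2% between groups, whereas for ILR3 these shares were 2.1% and 70.4%. With 11 groups of 2 arrays, spread between arrays alone puts a large share between groups, and these shares are not corrected for it. What the letters stand for is not given in the sources used here.

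**Figure D4:**
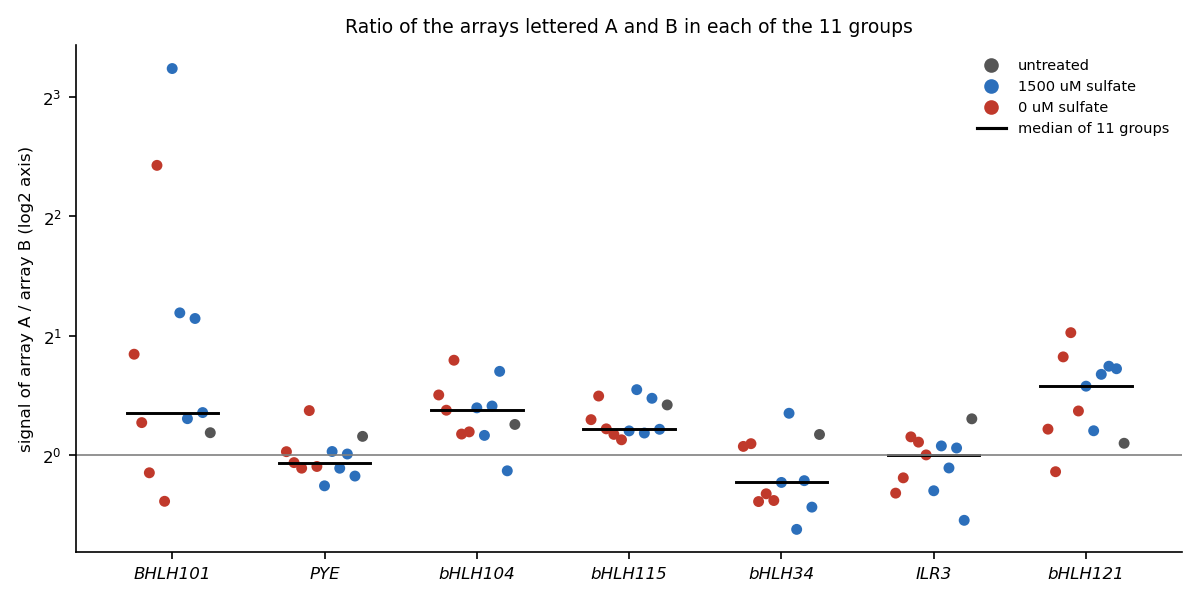
Signal of array A over signal of array B (log2 axis) in each of the 11 groups, by gene, coloured by medium, with black lines for the medians. bHLH115 lies above 1 in 11 of 11 groups and bHLH104 and bHLH121 in 10 of 11, while PYE, ILR3 and bHLH34 scatter around 1 and BHLH101 reaches 9.44.

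For the rest of the iron network few genes could be read. Of 52 listed genes (other regulators, uptake from soil, movement within the plant, storage) 10 were on probe sets named to 1 gene, with 11 probe sets of which 6 passed the filter. None of the movement or storage genes was among them. FIT, IRT1, FRO2, BTS and the NAS, OPT3 and FER genes, the best known readouts of the cascade, were thus not analysed here. Between media 0 of the 11 probe sets were called in any of the 3 fits, with mean differences over the times from -0.35 to 0.06 and a median of -0.03, against 0.0 for all probe sets tested.

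Against untreated roots, 5 of the 11 rose at 8 h and 0 fell, with a median difference of 0.29 against 0.04 for all probe sets tested. Of all probe sets, 3.52% were called higher at 8 h past the filter and 2.07% without it. By medium, with the untreated arrays shared, 5 of the 11 were called higher at 8 h in replete and 2 (S8H and F6'H1) in sulfate-free medium, where 1.69% and 1.43% of all probe sets were without the filter, and 0 of the 11 were called between media. The counts higher and lower were 1 and 1 at 2 h and at 4 h, 3 and 0 at 12 h, and 1 and 0 at 24 h. The shares of all probe sets called higher at these 4 times were 3.76%, 2.92%, 5.77% and 0.33% past the filter and 2.15%, 1.52%, 2.74% and 0.193% without it. Those called lower at 2 and 4 h were 2.01% and 1.25% past it and 1.02% and 0.611% without it.

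AT3G12900, listed as S8H, a hydroxylase that makes the iron-mobilising coumarin fraxetin, gave 26.2 and 45.4 in untreated roots and 28.1 to 42.1 at 2 and 4 h. At 8 h it gave 132 and 99.2 in replete and 108 and 78.8 in sulfate-free medium. Its difference was 1.31 at 8 h, 1.30 at 12 h and 0.83 at 24 h (adjusted p = 0.000176, 0.000143 and 0.0467), and 1.35 from 4 to 8 h (adjusted p = 6.4e-05). All 8 arrays of 8 and 12 h were above all 10 earlier ones.

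F6'H1, which makes the coumarin precursor scopoletin, rose from 381 and 443 in untreated roots to 686 to 943 at 4 h (log2 0.88, adjusted p = 0.000799), and was still higher at 8 h (0.76) and 12 h (0.57). BGLU42, a beta-glucosidase that frees coumarins for secretion, rose by 0.62 at 8 h and 0.65 at 12 h (adjusted p = 0.0453 and 0.0248). AT1G47400, listed as IMA1, rose at 8 h from 10.9 and 25.2 to between 28.3 and 73.0 (log2 1.05, adjusted p = 0.024). AT2G22760, listed as bHLH19, a subgroup IVa factor, rose at 2 and 8 h (0.70 and 0.71, adjusted p = 0.00871 and 0.00743, without the filter). Its probe set was dim, at 11.8 and 13.5 in untreated roots, 18.7 to 39 at 2 h and 25.2 to 32.3 at 8 h. Such signals are not shown to be above background, and the differences depend on the number added before taking log2.

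AT1G74770, listed as BTSL1, was the single one called lower against untreated roots with both media together and no block. On its brighter probe set it fell from 218 and 272 in untreated roots to between 125 and 147 at 2 h (log2 -0.80, adjusted p = 0.00348) and was lower at 4 h (-0.67, adjusted p = 0.0164). On its dim probe set the differences were -0.61 and -0.71, with adjusted p = 0.146 and 0.0965 without a block and 0.0387 and 0.0206 with the letter factor. By medium at 4 h, 2 of the 11 probe sets were called lower without sulfate and 0 in replete medium, without a block. Of all probe sets 0.791% were called lower without sulfate at 4 h past the filter and 0.387% without it. The dim BTSL1 probe set gave 7.32 and 9.98 in sulfate-free medium at 4 h, against 21.5 and 38.6 in untreated roots. BTSL2 (AT1G18910) differed by -0.10 to 0.23 and was not called at any of the 5 times; its step from 2 to 4 h, -0.33, had adjusted p = 0.133 without a block and 0.0415 with the letter factor. At 8 h, when S8H, F6'H1, BGLU42, IMA1 and bHLH19 rose, BHLH101 differed by 0.23 (interval -0.36 to 0.82) and PYE by -0.13 (adjusted p = 0.72 and 0.542). Among the other listed genes, bHLH18 (AT2G22750) differed by 0.29 at 8 h and bHLH25 (AT4G37850) by 0.01. Neither was called (adjusted p = 0.513 and 0.987 without the filter), nor was MTP8 (AT3G58060).

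**Figure D5:**
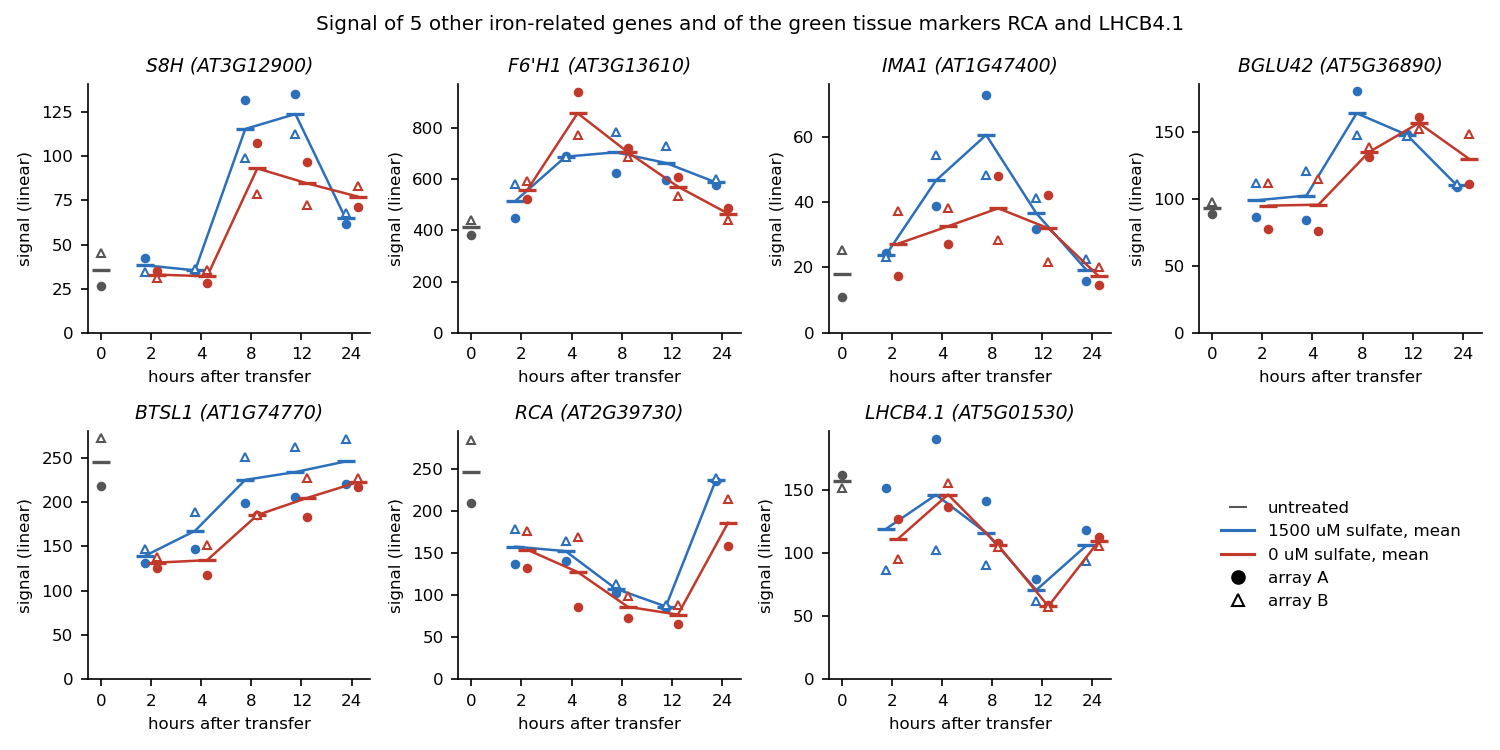
MAS5 signal (linear axis from 0) of 5 other iron-related genes and of the green tissue markers RCA and LHCB4.1 against hours after transfer, drawn as for the 7 regulators. S8H rises between 4 and 8 h in both media, BTSL1 is lowest at 2 and 4 h, and RCA and LHCB4.1 are lowest at 12 h.

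Genes whose 11 group means followed a regulator most closely were sought among 650 probe sets with 1 gene, past the filter and with an SD of group means of at least 0.3. The correlations rest on 11 means from arrays that the genes share, and are given as descriptions. For bHLH121 the closest were CHLM, a chlorophyll synthesis enzyme, with r = 0.952, AT4G31875 (0.942) and AT2G46220 (0.941). For bHLH104 they were AT2G21560 (0.96), AT2G04795 (0.932) and SGT1A (0.93), and for ILR3 AT5G02550 (0.899), SKP2A (0.895) and AT2G21185 (0.866). bHLH115 was followed by AT3G22540 and AT1G72200 (0.898 each) and TBL36 (0.849). bHLH34 and PYE had their best matches at 0.824 (AT5G41140) and 0.793 (AT4G28240), on group means that varied little (SD 0.15 and 0.08). Each best match is the highest of 650, and how high it would be for unrelated genes was not tested. BHLH101, on its dim probe set, reached 0.609 (AT2G01610). The regulators could not be matches of one another. Their own SDs of group means, from 0.08 (PYE) to 0.27 (bHLH121), were under the 0.3 asked of candidates.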

How the data were processed

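RNA of 22 root samples had been measured on 1 array each. The authors deposited linear intensity values, 1 signal a probe set. Per the submitters' processing notes they used MAS5 (version and target: not given in the sources used here). Leaving out 2% of probe sets at either end, the arrays' means were all 100.01: the deposited intensity values were thus already scaled, and no further normalization was applied. The 64 array controls were left out. Values were put on a log2(signal + 11) scale (11 is 0.25 of the pooled median of 43.9, rounded), which understates changes of dim probe sets. All 22 arrays entered 1 limma 3.58.1 fit (R 4.3.3, eBayes with an intensity trend) of 11 groups, with 11 residual degrees of freedom and 5.61 from the prior. The fits were also run on simulated arrays with independent noise and a constant letter difference, a simpler spread than that of these arrays. No result given here rests on them.

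The letters were taken to pair the arrays because the A minus B differences of the media correlated at each time, with r of 0.631, 0.607, 0.225, 0.316 and 0.429 at 2, 4, 8, 12 and 24 h. The letter factor leaves 10 residual degrees of freedom, and the time and letter block had a correlation of 0.4.

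Genes were named by the platform annotation (1 gene for 13513 probe sets, several for 503, 8730 unnamed here), updated through RefSeq, TAIR10.1 assembly, which matched 13436 of the 13513. The values come with no genome build and coordinates are left out. Sequences of the genes were not used here. The 7 genes and the iron and marker lists were chosen with earlier results of these data known. All 7 are named, as are listed iron genes that passed a test (up to 4 a comparison, except that at 8 h all 5 are named, an addition made after their values were seen) and, per regulator, the 3 closest genes in likeness, of which the text gives 1 to 3.

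Alternatives were the pseudocounts 1 and 50, no filter or the 60th percentile, quantile normalization, no intensity trend, both blocks, fits on the groups compared alone, and leaving out each array. Repeats of these with the letter factor were added after seeing the data.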

Additional observations from a re-analysis of the deposited data

How the results depend on the processing

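The counts between media were 0 at single times, over the 5 times and for a change with time under every alternative run, including each array left out in turn. The count of 1 against untreated roots became 0 without the filter and 4 with the replicate block of the letter as a factor, and leaving out 1 array gave 0 to 2. The count of 1 for a change over all times became 0 without the filter, 0 without the intensity trend, 4 with the replicate block of the letter and 0 when blocking by time and letter, and leaving out 1 array gave 0 to 1. The count of 0 between neighbouring times became 3 with the replicate block of the letter and 1 in fits on the groups compared alone, where bHLH121 from 12 to 24 h was called, and it was 0 whichever array was left out. The cause of these shifts was not tested, except that without the filter p-values are adjusted over 22746 in place of 13648 probe sets. No called value changed direction. Among calls made with the letter as a factor, those of bHLH121 at 12 h against untreated roots (adjusted p up to 0.0388) and of bHLH104 and bHLH121 over all times (up to 0.0206 and 0.0387) held with each of the 22 arrays left out. The other calls of the 7 genes against untreated roots or between times made with the letter factor were each lost without at least 1 array, as named beside them, apart from that of bHLH121 in sulfate-free medium at 12 h (up to 0.0469). For the 7 genes the blocks changed no other call than those given in the results. BHLH101 is limited by signals near background.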
